A study of Mus musculus with 6 samples.

Results

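The Hox genes are the 4 clusters of homeobox genes, and they were measured in telogen dorsal skin of mice with and without the clock transcription factor BMAL1. The members were the probe sets whose gene symbol in the platform annotation is Hox followed by a cluster letter from a to d and a number. There were 37 of them, 1 probe set for each of 37 genes, of 23410 probe sets with at least 1 gene symbol. They comprise 10 genes of HoxA and 9 each of HoxB, HoxC and HoxD. *Hoxb8* was measured only by a probe set that it shares with *Hoxb7*, which is described beside the members and is not counted among them.

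The experiment asked which genes of the skin, those under the clock among them, depend on BMAL1 at a stage before the hair cycle of the mutants falls behind. RNA of dorsal skin from 3 *Bmal1*-/- mice and 3 *Bmal1*+/- littermates was hybridized to Affymetrix Mouse Gene 1.0 ST arrays, with 1 mouse per array. All 6 mice were on a C57BL/6J background, were labelled as postnatal day 22 and were in telogen by histology, when hair follicles rest. For *Bmal1*+/- replicate 1 another label gives day 23. This mouse was the only male, and the other 5 mice were females. The controls carry 1 mutant copy of *Bmal1*, so no array shows skin with both copies intact. The knockout is germline and affects every cell of the mouse, and the pieces were whole dorsal skin. The paper gives the upper to middle back as the site for its time-course arrays. For the arrays used here it says that RNA extraction from dorsal skin was the same.

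The median intensity over all rows was 219 to 236 on the 6 arrays, and the correlation between arrays across the 23410 probe sets was 0.989 to 0.995. *Bmal1* itself, listed as *Arntl*, had intensities of 325, 365 and 355 in *Bmal1*+/- skin and of 569, 609.8 and 664 in *Bmal1*-/- skin. It was higher where the gene is disrupted, and the sources used here do not say which exons its probes read, so it does not check the labels. *Dbp*, a direct target of BMAL1, had intensities of 1378, 1536 and 1148 in *Bmal1*+/- skin and of 209.9, 220.5 and 221.0 in *Bmal1*-/- skin. Its log2 fold change was −2.55 (SE 0.10, adjusted p = 6.2e-06, limma), lower in all 3 mice labelled *Bmal1*-/-. All 7 keratinocyte markers and all 7 dermal fibroblast markers lay above background on every array. So did all 7 striated muscle markers, so the pieces of skin held striated muscle too.

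Hox proteins are transcription factors that bind DNA through the homeodomain, mostly together with cofactors of the TALE class such as PBX and MEIS. Within each cluster the genes lie in a row, and their place in the row follows the place along the body where they are used. Genes at the 3′ end, with low paralogue numbers, act in anterior regions, and genes at the 5′ end, with high numbers, act in posterior and distal regions. Dermal fibroblasts of the adult keep a Hox pattern that reflects where on the body they came from. *Hoxc13* is also used in the hair follicle, where it is needed for the hair shaft keratins.

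BMAL1 binds with its partner CLOCK to the E-box, whose canonical form is CACGTG, so the Hox promoters that hold these letters are shown first. The promoter table of RefSeq (build GRCm38.p6) holds 24 windows for 22 Hox genes, of which 21 are among the 37 measured. Each window spans 250 bases before and 50 bases after an annotated start. The motif is its own reverse complement, so a search of 1 strand covers both. It was found in 5 of the 24 Hox windows (20.8%) and in 2349 of all 32851 windows (7.15%). All 5 windows belong to HoxD, which has 10 windows for 9 genes. None of the windows of 9 HoxA genes, 3 HoxB genes and 1 HoxC gene held it. The upstream parts of the *Hoxd13* window (chr2:74667975-74668224, plus strand) and the *Hoxd10* window (chr2:74691641-74691890, plus strand) are shown. Both probe sets were above background on all arrays. So was that of *Hoxd4*, whose motif is shown further on in a shorter stretch. The E-box is in capitals.
Hoxd13 promoter: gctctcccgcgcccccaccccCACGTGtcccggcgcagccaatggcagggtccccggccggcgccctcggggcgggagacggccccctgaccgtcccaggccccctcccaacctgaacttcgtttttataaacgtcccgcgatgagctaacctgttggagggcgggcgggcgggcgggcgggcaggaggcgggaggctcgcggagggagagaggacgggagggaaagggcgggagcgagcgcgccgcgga
Hoxd10 promoter: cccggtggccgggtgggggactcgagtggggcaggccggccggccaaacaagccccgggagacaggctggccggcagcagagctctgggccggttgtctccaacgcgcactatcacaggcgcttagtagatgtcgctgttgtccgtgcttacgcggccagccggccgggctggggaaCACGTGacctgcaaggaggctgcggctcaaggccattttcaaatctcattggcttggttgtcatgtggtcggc
For the other 3 windows the 30 bases around the E-box are shown, at chr2:74682215-74682244 for *Hoxd11* (1 of its 2 annotated starts), chr2:74721964-74721993 for *Hoxd4*, where the motif spans the start itself, and chr2:74762947-74762976 for *Hoxd1*, all on the plus strand.
Hoxd11 E-box: tctccatggcgtCACGTGacataattacca
Hoxd4 E-box: gctatttataagCACGTGattccaataaac
Hoxd1 E-box: gctggctggcgcCACGTGgctgccgccgcc
These are matches of letters and not binding sites shown by these data. *Hoxb5* and *Hoxb6*, described further on, have no window in the table.

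Levels of different probe sets cannot be set against each other, because probes differ in how brightly they bind. A background was therefore taken from 1193 probe sets of olfactory and vomeronasal receptor genes, most of which were assumed to be silent in skin. Whether some of them are used in skin was not tested. A Hox probe set counted as above background on an array where its intensity exceeded the 95th percentile of these receptors on that array. That limit lay between 132 and 162. In all, 21 of the 37 Hox probe sets passed it on all 6 arrays, 6 passed it on some arrays and 10 on none. The median intensity over all rows, 219 to 236 on the 6 arrays, lay above the limit. Most rows of each array therefore exceeded it too, and the count is not read as a result about Hox genes. Since probes differ in how brightly they bind, a pass or a fail does not by itself show whether a gene is used.

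By position, the share of probe sets above background was highest in the middle of the clusters. These shares set different probe sets against each other, so they are not read as showing where Hox genes are used. In paralogue groups 5 to 8 all 10 measured genes were above background on every array, namely *Hoxa5*, *Hoxa6*, *Hoxa7*, *Hoxb5*, *Hoxb6*, *Hoxb7*, *Hoxc5*, *Hoxc6*, *Hoxc8* and *Hoxd8*. In groups 1 to 4, the anterior end, 7 of 11 were, namely *Hoxa4*, *Hoxb2*, *Hoxb3*, *Hoxb4*, *Hoxc4*, *Hoxd3* and *Hoxd4*. In groups 9 to 13, the posterior end, 4 of 16 were. These were *Hoxa9*, *Hoxd9*, *Hoxd10* and *Hoxd13*. By cluster the counts were 5 of 10 in HoxA, 6 of 9 in HoxB, 4 of 9 in HoxC and 6 of 9 in HoxD. At the stricter 99th percentile of the receptors 12 genes were above background on every array. They were 4 of the 11 in groups 1 to 4 (*Hoxb3*, *Hoxc4*, *Hoxd3* and *Hoxd4*), 6 of the 10 in groups 5 to 8 (*Hoxa5*, *Hoxa7*, *Hoxb7*, *Hoxc6*, *Hoxc8* and *Hoxd8*) and 2 of the 16 in groups 9 to 13 (*Hoxd9* and *Hoxd13*).

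**Figure D1:**
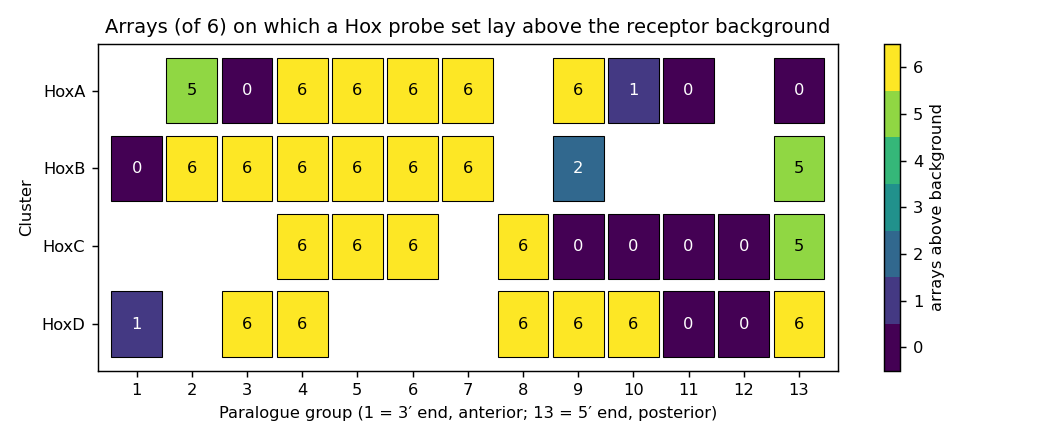
Map of the 4 Hox clusters (rows) by paralogue group (columns), with each square showing on how many of the 6 arrays the probe set of that gene lay above the 95th percentile of the receptor probe sets. Empty places, that of *Hoxb8* among them, have no gene or no probe set of their own. All 10 squares of groups 5 to 8 show 6 arrays, and 4 of the 16 squares of groups 9 to 13 do.

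In HoxC the run of probe sets above background on all arrays ended with *Hoxc8*. *Hoxc8* patterns the thorax, and its intensities were 289, 418 and 594 in *Bmal1*+/- skin and 438, 294 and 402 in *Bmal1*-/- skin. *Hoxc9*, the next gene towards the 5′ end, lay between 69.9 and 114, and *Hoxc10*, *Hoxc11* and *Hoxc12* between 60.1 and 154, on no array above background. *Hoxc13* had 237, 196 and 177 in *Bmal1*+/- skin and 153, 185 and 186 in *Bmal1*-/- skin. Its probe set was above background on 5 of the 6 arrays, all but *Bmal1*-/- replicate 1. In HoxD, *Hoxd8*, *Hoxd9* and *Hoxd10* were above background, *Hoxd11* (94.9 to 124) and *Hoxd12* (68.7 to 86.1) were not, and *Hoxd13*, the gene at the 5′ end with roles in the digits and the external genitalia, was again. *Hoxd13* had intensities of 508, 620.1 and 634 in *Bmal1*+/- skin and of 581, 582 and 747 in *Bmal1*-/- skin. No other probe set of group 13 passed the limit on all arrays. *Hoxa13*, which acts with *Hoxd13* in the distal limb, lay between 74.0 and 99.6, and *Hoxb13*, known from prostate and the tail end of the body, between 121 and 183 (5 of 6 arrays). Evx1 and Evx2, homeobox genes next to HoxA and HoxD, were above background on all arrays too, with means of 246 and 267 in *Bmal1*+/- skin and of 245 and 278 in *Bmal1*-/- skin, and were chosen after their values were seen.

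In HoxA the run above background reached from *Hoxa4* to *Hoxa9*. *Hoxa10* (118 to 151, 1 of 6 arrays) and *Hoxa11* (73.5 to 104, no array) followed without it, and at the other end *Hoxa3* lay between 106 and 132 on no array above background and *Hoxa2* between 137 and 182, above it on 5 of 6. In HoxB the run reached from *Hoxb2* to *Hoxb7*. *Hoxb3* had intensities of 1217, 1155 and 1367 in *Bmal1*+/- skin and of 1327, 1375 and 1283 in *Bmal1*-/- skin, and *Hoxb2* had 241, 236 and 227 against 237, 245 and 247. *Hoxb1*, a gene of the hindbrain, lay between 93.9 and 135. *Hoxb9* lay between 125 and 180.4 and was above background on 2 of 6 arrays. In HoxD, *Hoxd1* lay between 101.1 and 140.5 and was above background on 1 array.

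Genotype was compared with limma over all 23410 probe sets. With the adjusted p held under 0.05, 0 of the 37 Hox probe sets were lower in *Bmal1*-/- skin and 0 were higher, where 0.132% and 0.0982% of all probe sets tested were. Before adjustment 2 of 37 had a p under 0.05, both higher, where 8.77% of all probe sets passed (4.6% lower and 4.17% higher). The test built after Cyber-T, the regularised test that the methods of the study name, also called 0 Hox probe sets, and 0 reached the unadjusted threshold of 0.001 in those methods by either test. In 2 of 37 all *Bmal1*-/- values lay above all *Bmal1*+/- values, and in 0 of 37 they lay below, where these shares over all probe sets were 6.99% and 7.68%. The members' count was close to the first share and below the second, and neither is read as a result about Hox genes as a group. With 3 mice against 3, an exact permutation test of a single probe set cannot give a p below 0.1.

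The fold changes of the Hox probe sets were small. They ran from −0.20 (*Hoxc13*) to 0.30 (*Hoxc11*, not above background on any array) on the log2 scale, with a median of 0.05, where the median of all probe sets tested was 0.01. The Hox median was 0.01 without *Bmal1*-/- replicate 3, 0.02 without *Bmal1*+/- replicate 1 and 0.13 without *Bmal1*+/- replicate 3. In all, 29 were above 0 and 8 below, and among the 21 above background 19 were above 0. Of all probe sets tested, 45.3% were below 0. The receptor probe sets, which stand for background, had a median log2 fold change of 0.13 with 18.4% below 0, so dim probe sets were, at the median, brighter in *Bmal1*-/- skin. Among all probe sets the median was 0.09 at mean intensities of 50 to 100 and −0.02 at 300 to 400, and the part of this in the Hox values was not tested. The 95% confidence interval of the difference lay between −1 and 1, which is a doubling either way, for all 37 Hox probe sets, and between −0.5 and 0.5 for 34. In whole skin, fewer cells of a type and less RNA per cell cannot be told apart.

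**Figure D2:**
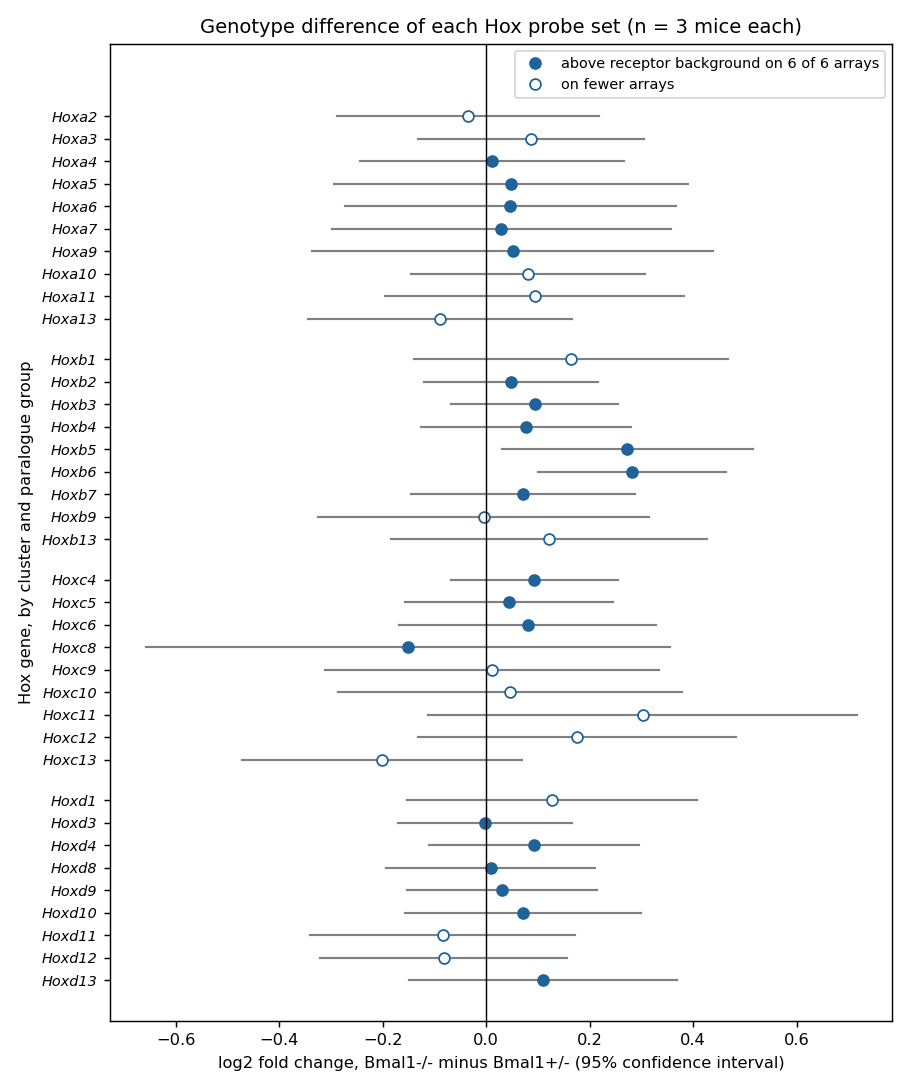
Log2 fold change (*Bmal1*-/- minus *Bmal1*+/-, 3 mice each) of each Hox probe set on the horizontal axis, with its 95% confidence interval from limma as a line, ordered by cluster and paralogue group. Filled points were above the receptor background on all 6 arrays. The intervals of *Hoxb5* and *Hoxb6* lie above 0, and those of the other 35 include it.

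Both Hox probe sets that passed the unadjusted threshold were neighbours in HoxB. *Hoxb6*, which acts in trunk mesoderm and the early limb, had intensities of 252, 280.3 and 279 in *Bmal1*+/- skin and of 339.8, 311 and 347 in *Bmal1*-/- skin, and the genotypes did not overlap. Its log2 fold change was 0.28 (SE 0.08, 95% interval 0.10 to 0.46, adjusted p = 0.32, limma). *Hoxb5*, which acts in the neck and upper trunk, had 138, 164 and 187 in *Bmal1*+/- skin and 204, 194 and 199 in *Bmal1*-/- skin, again without overlap. Its log2 fold change was 0.27 (SE 0.11, 95% interval 0.03 to 0.52, adjusted p = 0.51, limma). Neither passed the adjusted test, and *Hoxb5* was at 0.17 when *Bmal1*+/- replicate 1, the male, was left out.

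The genes on either side were mixed. *Hoxb7* had intensities of 336, 313 and 405 in *Bmal1*+/- skin and of 359.9, 362 and 382 in *Bmal1*-/- skin, and the genotypes overlapped. The probe set shared by *Hoxb8* and *Hoxb7* had 163, 130.2 and 153 against 171, 205 and 200.5, no overlap and a difference of 0.34 on the log2 scale (SE 0.11, adjusted p = 0.40, limma). It disagreed with the *Hoxb7* probe set, at 0.07, and it was above background on 4 of 6 arrays. Which of the 2 genes its signal comes from cannot be told from the array. *Hoxb4*, on the 3′ side, had 248, 218 and 215 against 222, 254 and 244, and *Hoxb3* differed by 0.09 on the log2 scale (SE 0.07, adjusted p = 0.74, limma).

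The probe sets with negative fold changes did not pass the test either. *Hoxc13*, a gene the study lists among regulators whose loss alters hair follicle structure, was at −0.20 on the log2 scale (SE 0.12, 95% interval −0.47 to 0.07, adjusted p = 0.67, limma), and its genotypes overlapped. It was at −0.09 without *Bmal1*+/- replicate 1, the male, and at −0.12 without *Bmal1*-/- replicate 1. *Hoxc8* was at −0.15 with the widest SE of all 37, 0.23 (95% interval −0.66 to 0.36, adjusted p = 0.88), and it turned to 0.10 when *Bmal1*+/- replicate 3 was left out and to 0.01 without *Bmal1*-/- replicate 2. *Hoxd3* was at −0.0028 (SE 0.07, adjusted p = 0.995), with 334, 319.6 and 327 in *Bmal1*+/- skin and 316, 313 and 350.1 in *Bmal1*-/- skin. *Hoxd13* was at 0.11 (SE 0.12, adjusted p = 0.82), and it turned to −0.01 without *Bmal1*-/- replicate 3, its highest array.

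The HoxD genes whose promoters hold an E-box gave no call. Among those above background, *Hoxd10* had intensities of 171, 150.4 and 188 in *Bmal1*+/- skin and of 192, 168 and 177 in *Bmal1*-/- skin, a log2 fold change of 0.07. *Hoxd4* had 335, 368 and 384 against 367, 363 and 434, a log2 fold change of 0.09. The genotypes overlapped for both, as they did for *Hoxd13*. *Hoxd1* (0.13) and *Hoxd11* (−0.08) were not above background on all arrays.

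The remaining genes above background overlapped between genotypes too. *Hoxc4*, *Hoxc5* and *Hoxc6* form a run of neighbours that act in the neck and upper trunk. *Hoxc4* had intensities of 364, 345 and 329 in *Bmal1*+/- skin and of 379, 369 and 362 in *Bmal1*-/- skin, where 1 *Bmal1*+/- mouse lay among the *Bmal1*-/- values. *Hoxc5* had 249, 272 and 301 against 292, 291 and 264. *Hoxc6* had 327, 379 and 361 against 339, 349 and 449, with *Bmal1*-/- replicate 3 above the rest. In HoxD, *Hoxd8* had 889, 974 and 852 against 869, 833 and 1038, with the same mouse highest. *Hoxd9*, a gene of the lower trunk and limb, had 311, 314 and 282 against 306, 291 and 331. In HoxA, *Hoxa4* had 276, 291 and 354 against 269, 322 and 337, and the values of either genotype covered nearly the same range.

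For most Hox genes, *Hoxb2* and *Hoxc4* among them, values within 1 genotype ranged more widely than the genotype means differed. The genes of HoxA from *Hoxa5* to *Hoxa9*, which pattern the neck, trunk and limb, moved together from mouse to mouse. *Hoxa5* had intensities of 395, 483 and 604 in *Bmal1*+/- skin and of 478, 444 and 605 in *Bmal1*-/- skin. *Hoxa7* had 619, 817 and 999 against 770.0, 781 and 895. *Hoxa9* had 233, 360.4 and 379 against 335, 279.9 and 381. In all 3, and in *Hoxa6* (173, 233 and 241 against 201, 202 and 265), *Bmal1*+/- replicate 1 was lowest and either *Bmal1*+/- replicate 3 or *Bmal1*-/- replicate 3 highest. The highest array was 1.53 times the lowest for *Hoxa5* and *Hoxa6*, 1.61 times for *Hoxa7*, 1.64 times for *Hoxa9* and 2.06 times for *Hoxc8*, which was lowest in the same mouse. The coefficient of variation over the 6 mice was 15.2% to 18.2% for the 4 HoxA genes and 27.6% for *Hoxc8*. It was 3.06% for *Hoxb2*, 4.19% for *Hoxd3* and 5.04% for *Hoxc4*, and its median over the 21 genes above background was 9.05%.

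**Figure D3:**
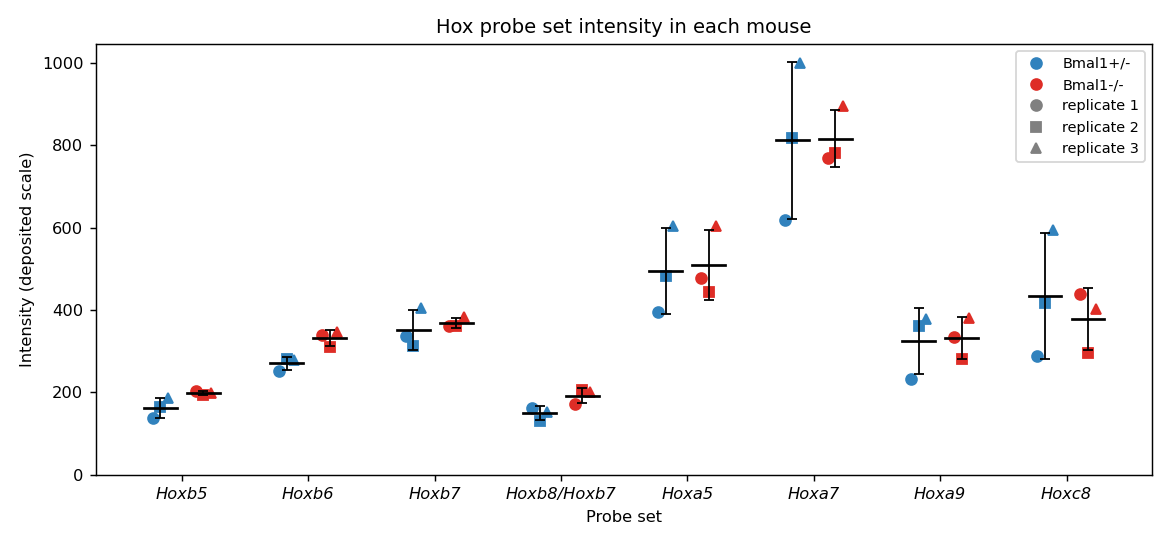
Probe set intensity in each mouse (vertical axis, deposited linear scale) for 3 HoxB genes, the probe set shared by *Hoxb8* and *Hoxb7*, 3 HoxA genes and *Hoxc8*, with *Bmal1*+/- mice in blue and *Bmal1*-/- mice in red, a horizontal line at the mean and bars of 1 SD (n = 3). The genotypes are apart for *Hoxb5*, *Hoxb6* and the shared probe set, whereas *Hoxa5*, *Hoxa7*, *Hoxa9* and *Hoxc8* overlap between genotypes and spread widely within each genotype.

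The spread between mice was then set out by position in the clusters. For each mouse the log2 deviation from the mean of the 6 mice was averaged over the Hox genes above background. In paralogue groups 5 to 8 the *Bmal1*+/- mice had −0.24, −0.01 and 0.14, and the *Bmal1*-/- mice had 0.02, −0.06 and 0.16. In groups 1 to 4 it was −0.03, −0.06 and 0.00 against −0.03, 0.04 and 0.08, a narrower range. In groups 9 to 13, over 4 genes, it was −0.17, 0.01 and 0.07 against 0.03, −0.09 and 0.16. Among clusters, HoxA had the widest range, with −0.32, 0.03 and 0.23 against −0.07, −0.09 and 0.21. HoxD had −0.07, −0.01 and 0.00 against −0.01, −0.07 and 0.15, and HoxB had −0.11, −0.11 and 0.01 against 0.05, 0.07 and 0.09. HoxC, over 4 genes, had −0.18, 0.01 and 0.14 against 0.05, −0.09 and 0.07. *Bmal1*+/- replicate 1 was the lowest array for 11 of the 21 genes above background and for 8 of the 10 in groups 5 to 8, where it was lowest for 21.8% of all probe sets tested. *Bmal1*-/- replicate 3 was highest for 11 of 21, where it was highest for 19.6% of all probe sets. These are descriptions of 6 mice, noticed in the values and not tested.

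**Figure D4:**
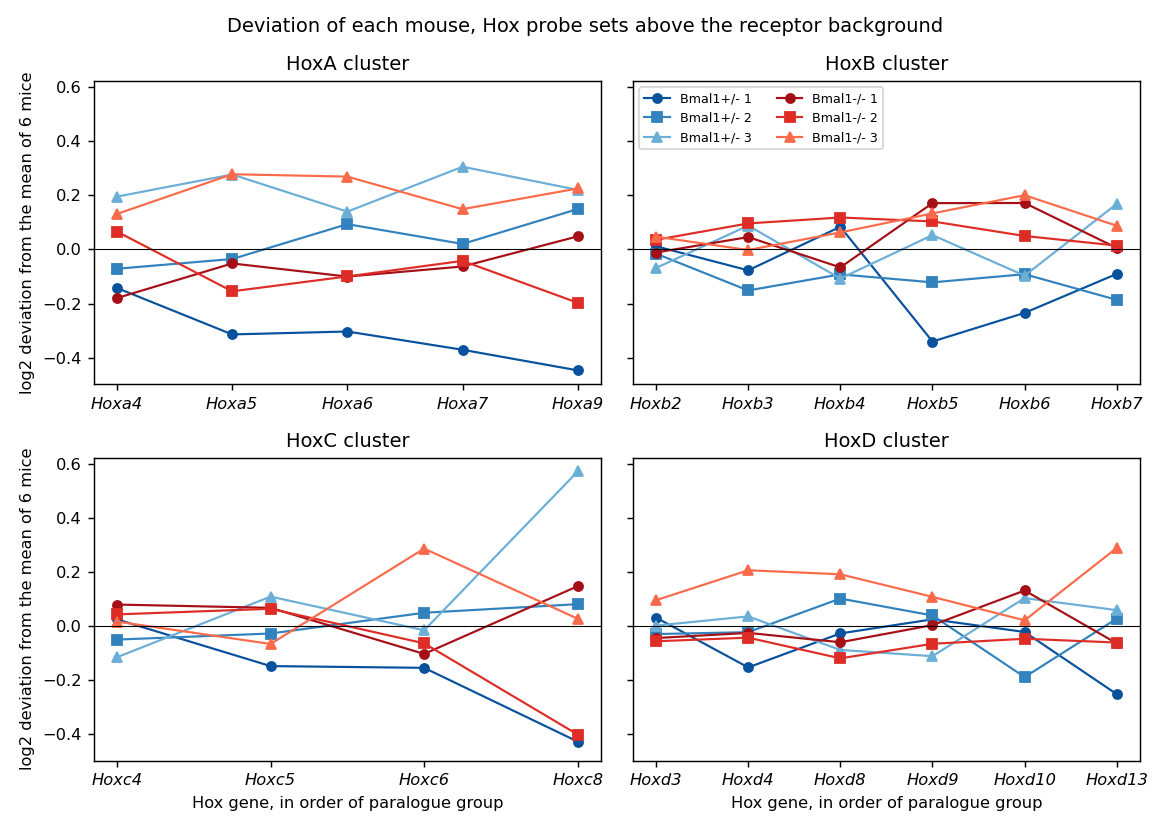
Log2 deviation of each mouse from the mean of the 6 mice (vertical axis) for the 21 Hox probe sets above background, in order of paralogue group within each cluster, with *Bmal1*+/- mice in blues and *Bmal1*-/- mice in reds. In HoxA the line of *Bmal1*+/- replicate 1 runs lowest from *Hoxa5* to *Hoxa9* and those of replicate 3 of both genotypes run highest, whereas most lines of HoxD lie closer together.

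*Bmal1*+/- replicate 1 was the only male and the only mouse with day 23 in a label. Sex and the day label cannot be told apart here, since they come together in 1 mouse. The sources used here do not say whether its piece of skin differed from the others. In the same mouse the summed marker intensity was the lowest of all mice for striated muscle (62998, with up to 82503 in *Bmal1*+/- mice) and endothelium (3806) and the highest of all for dermal fibroblasts (81707), melanocytes (2545) and immune cells (3838). Its keratinocyte, adipocyte and nerve sums lay within the range of the other mice. Between genotypes, the melanocyte sums stood apart, at 2078 to 2545 in *Bmal1*+/- and 1666 to 1765 in *Bmal1*-/- mice. Of the 6 markers 4 had an unadjusted p under 0.05 (limma), where 8.77% of all probe sets did, and 0 were called. *Dct*, the brightest, had means of 863 in *Bmal1*+/- and 537 in *Bmal1*-/- skin. *Mitf* and *Mlana* overlapped between genotypes, and *Tyr* was above background on no array. The part of these cell types in the Hox values was not tested. With the 5 females alone, the log2 fold change was −0.10 for *Hoxa5*, −0.09 for *Hoxa6*, −0.15 for *Hoxa7*, −0.16 for *Hoxa9* and −0.40 for *Hoxc8*, with adjusted p of 0.78 to 0.95 (limma). With all 6 mice the 4 HoxA genes were at 0.03 to 0.05.

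Genes linked to the Hox genes by function, regulation, body position or location were read from the same fit, in 8 lists with 102 measured entries. None was called, where 0.132% of all probe sets tested were called lower and 0.0982% higher. Before adjustment 10 of the 102 had a p under 0.05 (limma), where 8.77% of all probe sets did. Neither count is read as a result about these lists. Of the TALE cofactors, which bind DNA with Hox proteins, 8 of 9 were measured and 7 lay above background, including *Pbx2*, *Pbx3*, *Meis1* and *Meis2*. None of the 8 passed the unadjusted threshold, and their median log2 fold change was −0.06, with *Meis1* at means of 764 and 707 (log2 fold change −0.11, adjusted p = 0.67, limma). For *Pbx3* and *Meis3* all *Bmal1*-/- values lay below all *Bmal1*+/- values, where this share over all probe sets was 7.68%. The other measured cofactors overlapped between genotypes. Of 20 Polycomb and trithorax regulators, which keep Hox genes silent or active, 19 were measured and all 19 were above background. *Jarid2*, a subunit of the Polycomb complex that methylates histone H3, had the smallest p, with means of 1285 in *Bmal1*+/- and 1064 in *Bmal1*-/- skin (log2 fold change −0.27, adjusted p = 0.20, limma).

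Retinoic acid switches on the 3′ Hox genes of the embryo. Of 17 genes of its pathway 16 were measured. *Dhrs3*, which reduces retinal to retinol, had means of 1457 and 1705 (0.22, adjusted p = 0.30), and *Aldh1a1*, which makes retinoic acid, had 2072 and 1572 (−0.40, adjusted p = 0.45). Of the upstream regulators 7 of 8 were measured. *Zbtb16*, which represses Hox genes in the limb, had 1369 and 1756 (0.36, adjusted p = 0.22), and *Egr2*, which controls Hox genes in the hindbrain, had 637 and 562 (−0.18, adjusted p = 0.49). None of these 4 passed the adjusted test with limma.

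All 14 position genes outside the Hox clusters were measured, and 8 lay above background on every array. The genes of known regions named next were chosen after their values were seen. *Tbx15*, which marks dorsal dermis, had means of 1371 in *Bmal1*+/- and 1319 in *Bmal1*-/- skin, above background on every array. *En1*, of ventral ectoderm, had 162 and 157, above background on 3 of 6 arrays. *Tbx4*, of the hindlimb, had 341 and 348, and *Lmx1b*, of the dorsal limb, had 283 and 293, both above background on every array. The smallest p in this list was that of *Alx4* (153 and 120.0, log2 fold change −0.31, adjusted p = 0.45, limma). Among 16 measured genes of the growing hair that are linked to *Hoxc13*, 6 were above background. *Lef1*, a transcription factor of hair growth, had means of 423 and 318 (−0.39, adjusted p = 0.30), and *Dlx3*, an activator of hair keratin genes, 221 and 272 (0.28, adjusted p = 0.41). Of 13 measured genes beside the clusters, *Skap2*, next to HoxA, had the smallest p, with 732 and 654 (−0.16, adjusted p = 0.47). Of 9 measured non-coding genes within the clusters only *Mir615*, which lies in *Hoxc5*, was above background, and *Mir196a-2*, between *Hoxc10* and *Hoxc9*, had the smallest p at means of 26.8 and 38.4 (0.35, adjusted p = 0.40), under the background limit on all arrays.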

How the data were processed

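Dorsal skin RNA of 3 *Bmal1*+/- and 3 *Bmal1*-/- mice was measured, with groups, replicate numbers and sexes from the sample labels. Per the labels and the values, the deposited numbers are linear intensity values, 1 per probe set, that the authors made with PLIER 2.0 in Affymetrix Expression Console 1.1 per the submitters' processing notes. The sources used here do not give the background correction, the normalization between arrays or the genome build.

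An offset of 16 was added to each value and log2 was taken, without another normalization. The 23410 probe sets with at least 1 gene symbol (21789 with 1 symbol, 1621 with several) were fitted in limma 3.58.1 (R 4.3.3), using an intensity trend in eBayes. The two-sided p of *Bmal1*-/- against *Bmal1*+/- was adjusted over all of them after Benjamini and Hochberg, and the Hox rows were read from that fit. The other 12147 rows have no symbol and were left out. Calls were made where the adjusted p was under 0.05. The number of arrays limits the precision.

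The members, the gene lists and the rules were chosen with earlier results of these data known. Fold changes with errors are given for Hox genes at an unadjusted p under 0.05, the 4 largest positive and up to 4 negative fold changes among those above background (2 were negative), *Hoxc13*, and the 1 or 2 smallest p of each other list. Any other fold change in the text was picked after the values had been seen. A test built after Cyber-T took 101 probe sets as its window and 10 as its prior weight, as the sources used here do not state the settings. Other alternatives changed the offset (1 or 64), the normalization (quantile), the filter on dim probe sets (mean under 50 left out), the rows tested, the variance model, the replicate block and the receptor percentile (90 or 99), or left out 1 array. The offset and quantile alternatives for the position of the Hox signal and for genotypes that do not overlap were added after the data had been seen. Some items are not reported here. The procedure was tested on simulated data. Promoter sequences came from RefSeq (GRCm38.p6) through the gene symbol. Figures were drawn with matplotlib 3.10.9 in Python 3.11.15.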

Additional observations from a re-analysis of the deposited data

How the results depend on the processing

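No Hox probe set was called under any of the 14 settings of the fit, with a lowest adjusted p of 0.18 (*Hoxb6*, the test after Cyber-T) to 0.68 (without *Bmal1*+/- replicate 1). The number at an unadjusted p under 0.05 ranged from 1 to 6 when 1 array was left out. It was 6 without *Bmal1*+/- replicate 3, where 15.4% of all probe sets passed, and 1, *Hoxb6*, without any other array. Leaving out 1 array turned the sign of the fold change in 19 of the 37 Hox genes, *Hoxa5*, *Hoxa6*, *Hoxa7* and *Hoxa9* among them, and the other settings did so in 3 (*Hoxc9*, *Hoxc10* and *Hoxd3*). When 1 array was left out, *Hoxc8* ranged from −0.40 to 0.10, *Hoxd13* from −0.0073 to 0.17 and *Hoxd3* from −0.052 to 0.025, and with quantile normalization *Hoxd3* was at 0.0048. The replicate numbers were not taken to pair the mice. Mice of the same number had correlations of 0.08, −0.35 and 0.06 between their deviations from the group means. Mice of different numbers and genotypes had −0.26 to 0.26, and with so few mice these values cannot settle whether the numbers pair them. With the replicate block, 3 Hox probe sets passed the unadjusted threshold (*Hoxb5*, *Hoxb6* and *Hoxc11*) and 0 were called. At the 99th percentile of the receptors 12 and not 21 Hox probe sets were above background. Over all probe sets, 19 were lower and 15 higher with all rows tested, 16 and 11 without the intensity trend, and 177 and 96 with the test after Cyber-T, against 31 and 23 in the fit as reported, and without 1 array the number higher went down to 13. The cause of these changes was not tested. Array signal limits 16 Hox genes, whose probe sets were not above background on every array.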
